A study of Mus musculus with 6 samples.

Results

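Bacterial lipopolysaccharide (LPS) is sensed at the macrophage surface by a receptor complex of Toll-like receptor 4 (TLR4) and MD-2, the product of Ly96, to which CD14 hands the ligand. From the plasma membrane the receptor signals through TIRAP and MyD88, which assemble a complex of IRAK kinases that activates the ubiquitin ligase TRAF6. After endocytosis, which also depends on CD14, it signals through TRAM, encoded by Ticam2, and TRIF, encoded by Ticam1, toward type I interferon. The mRNAs of 10 genes of this system were measured: the receptor complex genes Tlr4, Ly96 and Cd14, the adaptors Myd88, Tirap, Ticam1 and Ticam2, and Irak2, Irak3 and Traf6 downstream of them. They were taken by gene symbol from the 54532 genes listed in each library, and all 10 had a mean of at least 1 FPKM (fragments mapped to the exons of a gene, scaled to exon length and library depth), as did 10540 genes in all, which were tested.

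RNA was sequenced from iBMDMs, a mouse macrophage line made from bone marrow and immortalized with retroviruses carrying v-raf and v-myc. The cells had been infected with lentiviruses encoding either a control shRNA (control) or an shRNA against PGAM5, a mitochondrial protein phosphatase (PGAM5 KD), and all were treated with LPS at 100 ng/ml for 4 hours. Each group had 3 libraries, and no unstimulated library was analysed, so the values are levels after LPS and not inductions by LPS. The number of separately infected lines in each group is not stated. An effect of PGAM5 loss and another difference between the knockdown and control cells cannot be told apart. Separate cultures are not stated for the replicates, so p-values measure the spread between these libraries, which may be technical.

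The targeted gene was checked first. Pgam5 was at 17.1, 13.0 and 13.4 FPKM in the control libraries and at 4.33, 5.75 and 4.53 FPKM in the PGAM5 KD libraries. All knockdown libraries lay below all controls, with a log2 fold change of log2(FPKM + 1) of -1.40 (SE 0.13, limma adjusted p = 0.000358). The libraries held between 18163464 and 24388917 fragments. Of 10 macrophage marker genes, 8 could be tested, of which 3 were higher and 4 lower in PGAM5 KD at an adjusted p under 0.05, beside 16.8% and 14.9% of all genes tested. Their summed level was 2690 to 2777 FPKM in control and 2149 to 2192 FPKM in PGAM5 KD libraries, and Mertk was listed at 0 in all libraries. Csf1r, the receptor for macrophage colony-stimulating factor, was lower by 0.64 and Fcgr1, the high-affinity IgG receptor, higher by 1.51 on the log2 scale. The part of these marker differences in the results on the receptor genes was not tested. The marker lists of neutrophils, fibroblasts, lymphocytes and dendritic cells each summed to at most 0.613 FPKM in any library, with 5 of 8, 4 of 6, 5 of 7 and 1 of 5 genes of those lists at 0 throughout.

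Of the 10 receptor and adaptor genes, 3 rose in PGAM5 KD cells (Cd14, Ticam1 and Irak3), 1 fell (Irak2) and 6 did not pass the test (Tlr4, Ly96, Myd88, Tirap, Ticam2 and Traf6). The call was an adjusted p under 0.05 in limma over all genes tested, a threshold that 31.7% of all genes passed, 16.8% as higher and 14.9% as lower in PGAM5 KD. A share of 4 of 10 is thus near that of all genes, and the results are those of single genes. After scaling each library to the same total (TPM), 2 of the 10 genes were higher and 2 lower, beside 10.3% and 21.7% of all genes. The median log2 fold change was 0.034 over the 10 genes and 0.013 over all genes tested, and the median absolute change was 0.23 against 0.15. Libraries of the groups did not overlap for 5 of the 10 genes, 3 higher and 2 lower, beside 47.1% of all genes, 24.2% higher and 22.9% lower. When a log2 fold change above 1 in either direction was also required, limma called 0 of the 10 genes (0 also at an unadjusted p under 0.05), beside 1.32% of all genes. At the unadjusted threshold without the fold limit, 3 were higher and 2 lower, beside 22.7% and 20.1% of all genes.

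**Figure D1:**
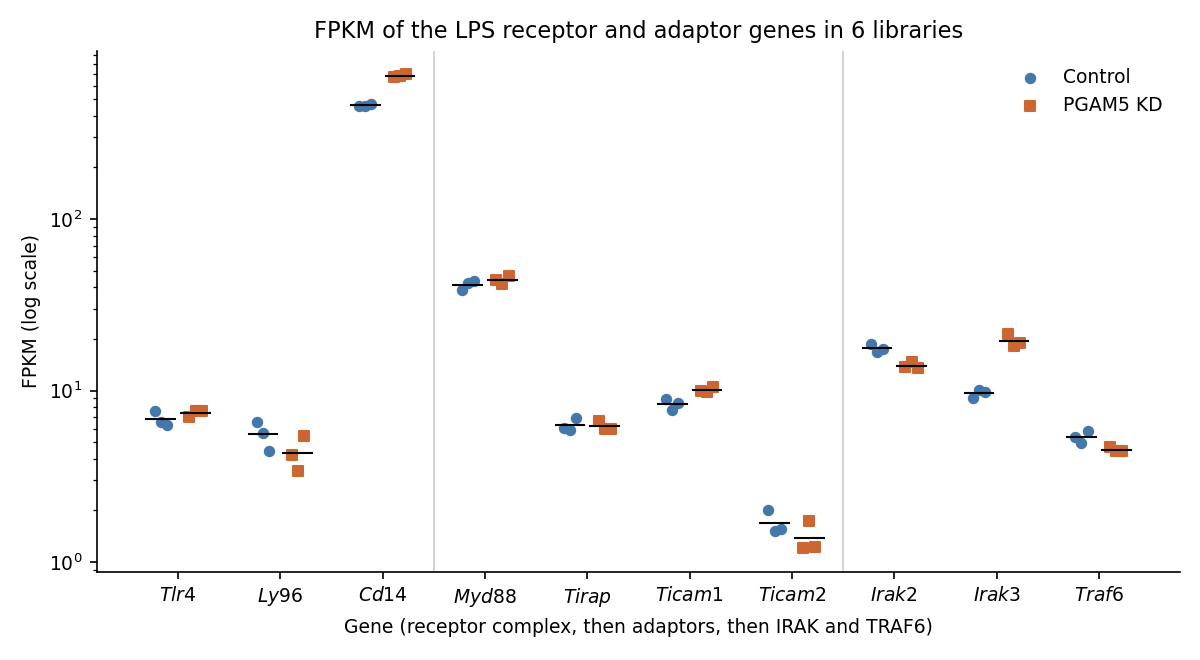
FPKM on a log axis for each of the 10 genes in the 3 control (blue circles) and 3 PGAM5 KD (orange squares) libraries, with a black line at each group mean and grey lines between receptor complex, adaptors, and IRAK and TRAF6 genes. Cd14 lies far above the rest in both groups, and Irak2 and Irak3 change places.

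The genes spanned a wide range of levels. By its mean over all 6 libraries, Cd14 ranked above 99.5% of the genes tested. In control cells Cd14 was the most abundant of the 10 at 461 ± 7.58 FPKM (SD, n = 3), and its level was 11.1 times that of Myd88, the next gene in the order. Ticam2 was the least abundant at 1.70 ± 0.265 FPKM, and its mean over all 6 libraries ranked above 7.35% of the genes tested. Irak2, Irak3 and Ticam1 followed Myd88, each apart from the next without overlap of libraries. Tlr4, Tirap, Ly96 and Traf6, between 5.38 and 6.82 FPKM, each overlapped with the next in that order, while Tlr4 and Tirap both lay wholly above Traf6. In PGAM5 KD cells Irak3 stood above Irak2, and Cd14 was at 15.5 times the FPKM of Myd88. There, Tlr4 and Tirap no longer overlapped, and only Traf6 and Ly96, which had changed order, still did.

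Within the receptor complex, Cd14 was the 1 gene that passed the test. CD14 is a GPI-anchored protein that takes LPS from LPS-binding protein. Cd14 (chr18:36725067-36726798, minus strand, GRCm38) was at 456, 458 and 469.9 FPKM in control libraries and at 671, 679 and 698 FPKM in PGAM5 KD libraries. The lowest knockdown library lay well above the highest control, and the libraries within each group spread by less than the difference between the groups. The mean rose 1.48-fold to 683 ± 13.4 FPKM (SD, n = 3), a log2 fold change of 0.56 (SE 0.028, 95% interval 0.50 to 0.63, limma adjusted p = 2.68e-05). Of all genes tested, 3.75% had a larger rise. The exact permutation test over the libraries gave p = 0.1, the smallest that 3 against 3 allows. In whole-culture RNA, a change in the number of cells that express a gene and a change in its RNA per cell cannot be told apart.

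Tlr4 and Ly96, which encode the proteins that form the signaling receptor, did not pass the test. Tlr4 (chr4:66827584-66930284, plus strand) was at 7.55, 6.59 and 6.32 FPKM in control libraries and at 7.03, 7.59 and 7.60 FPKM in PGAM5 KD libraries. One control library reached into the range of the knockdown libraries. Its log2 fold change was 0.11 (95% interval -0.066 to 0.28, limma adjusted p = 0.308), and ran from 0.061 without control replicate 3 to 0.17 without control replicate 1. Scaled to TPM it was 0.041. Ly96 (chr1:16688051-16709611, plus strand) was at 6.52, 5.68 and 4.46 FPKM in control libraries and at 4.23, 3.40 and 5.42 FPKM in PGAM5 KD libraries. Its libraries spread widely in both groups and overlapped, with coefficients of variation of 18.6% and 23.4%. The log2 fold change of Ly96 was -0.30 (95% interval -0.69 to 0.092, limma adjusted p = 0.214), so a fall to 0.621 of the control level lies inside the interval on the FPKM + 1 scale. Leaving out 1 library took it from -0.44 without PGAM5 KD replicate 3 to -0.19 without control replicate 1 and -0.17 without PGAM5 KD replicate 2. Ly96 is a short mRNA and rested on 63 to 135 fragments a library, where counting alone gives an error of 12.6% at the lowest.

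Among the adaptors, the TRIF gene Ticam1 passed the test as higher, and Ticam2, Myd88 and Tirap did not pass. The ratio of Myd88 to Ticam1 overlapped between the groups (exact permutation p = 0.3), so a difference between Ticam1 and Myd88 was not shown. TRIF couples endosomal TLR4 to TBK1 and IRF3. Ticam1 (chr17:56269319-56276786, minus strand) was at 8.91, 7.67 and 8.42 FPKM in control libraries and at 9.99, 9.77 and 10.6 FPKM in PGAM5 KD libraries. All 3 knockdown libraries were above all 3 controls, by a margin of less than 1 FPKM at the closest. The mean went from 8.33 ± 0.623 to 10.1 ± 0.403 FPKM (SD, n = 3), a log2 fold change of 0.25 (SE 0.064, 95% interval 0.10 to 0.40, limma adjusted p = 0.0239). This call was near its threshold: the adjusted p was 0.0612 without control replicate 2, 0.0601 without control replicate 3, 0.0517 without PGAM5 KD replicate 1 and 0.0788 without PGAM5 KD replicate 3. Scaled to TPM, the log2 fold change was 0.19 with an adjusted p of 0.0701, and with no filter on low genes the adjusted p was 0.0533.

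Ticam2, the gene of the TRAM bridge between TLR4 and TRIF, did not pass the test. Ticam2 (chr18:46557291-46574533, minus strand) was at 2.00, 1.53 and 1.56 FPKM in control libraries and at 1.20, 1.72 and 1.22 FPKM in PGAM5 KD libraries. PGAM5 KD replicate 2 lay inside the control range and the other two knockdown libraries below it. The log2 fold change was -0.18 (95% interval -0.49 to 0.13, limma adjusted p = 0.335), and ran from -0.28 without PGAM5 KD replicate 2 to -0.10 without control replicate 1. It was -0.32 after scaling to TPM and -0.29 with a pseudocount of 0.1. By voom it was also -0.32, but whole fragments were not recovered for Ticam2 and rounded values were used. Ticam2 shares 838 exon bases, 14.5% of its exon length, on the same strand with Tmed7, which encodes a cargo receptor of the secretory pathway and was at 20.4 FPKM in control and 22.4 FPKM in PGAM5 KD cells, so the fragments given to Ticam2 are uncertain.

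MyD88 nucleates the complex of IRAK kinases, and TIRAP brings it to the membrane. Myd88 (chr9:119335934-119341411, minus strand) was at 38.7, 42.2 and 43.4 FPKM in control libraries and at 43.9, 41.8 and 46.6 FPKM in PGAM5 KD libraries. The ranges overlapped, with a log2 fold change of 0.088 (95% interval -0.049 to 0.23, limma adjusted p = 0.291) that ran from 0.040 without control replicate 1 to 0.13 without PGAM5 KD replicate 2 and was 0.011 after scaling to TPM. Tirap (chr9:35184551-35200291, minus strand) was at 6.09, 5.92 and 6.90 FPKM in control libraries and at 6.66, 5.96 and 5.96 FPKM in PGAM5 KD libraries. All knockdown libraries of Tirap lay within the control range, and its log2 fold change of -0.021 had a 95% interval of -0.20 to 0.15 (limma adjusted p = 0.857). The sign of the Tirap difference turned positive when 1 library was left out, reaching 0.037 without control replicate 3, and the difference was -0.097 after scaling to TPM. Myd88 shares 290 exon bases with Acaa1a on the opposite strand and Tirap 446 with the antisense gene Gm39318, and the labels do not say whether the counting used strand. On the opposite strand, Tirap shares 39 exon bases with Srpr, which was at 62.0 FPKM in control and 75.0 FPKM in PGAM5 KD cells. Tirap also resembles stretches of 3 expressed transcripts, Nemf (214 bases), Itfg2 (324 bases) and Zfp11 (311 bases), at 1.60 to 10.3 FPKM. Acaa1a, a peroxisomal thiolase gene, was at 39.5 FPKM in control and 31.3 FPKM in PGAM5 KD cells.

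**Figure D2:**
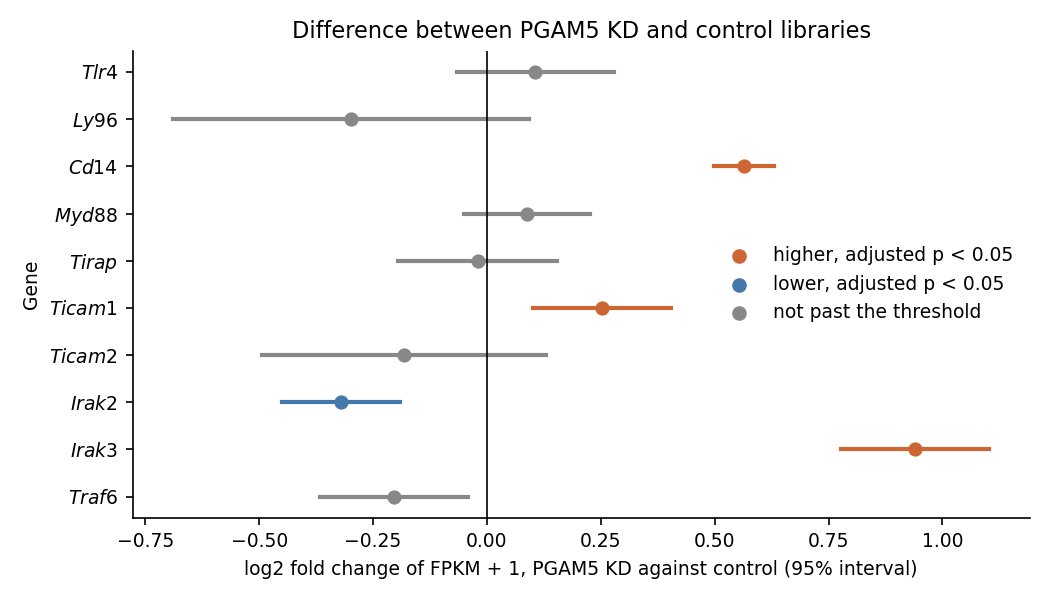
log2 fold change of FPKM + 1 in PGAM5 KD against control (points) with 95% intervals from limma (bars) for the 10 genes. Points are orange for higher and blue for lower at an adjusted p under 0.05 and grey for the rest, and the interval of Irak3 (0.78 to 1.10) lies apart from those of the other 9 genes.

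Irak2 and Irak3 changed in opposite directions. IRAK2 is a kinase family member that sustains signaling to TRAF6, whereas IRAK3, also called IRAK-M, is an inducible member that restrains signaling in macrophages. Irak3 (chr10:120141648-120202130, minus strand) was at 9.08, 10.1 and 9.82 FPKM in control libraries and at 21.3, 18.2 and 18.9 FPKM in PGAM5 KD libraries. Every knockdown library was far above every control. The mean rose 2.02-fold, from 9.65 ± 0.513 to 19.5 ± 1.60 FPKM (SD, n = 3), and the log2 fold change of log2(FPKM + 1) was 0.94 (SE 0.069, 95% interval 0.78 to 1.10, limma adjusted p = 0.000151), with an exact permutation p of 0.1. Only 1.18% of the genes tested had a larger rise. Irak3 was not differentially expressed by the limit of 1 on this scale, which understates the change of low genes, and it stood at 1.00 with a pseudocount of 0.1 and at 1.01 by voom on recovered fragments, past the limit in both.

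Irak2 (chr6:113638467-113695026, plus strand) was at 18.6, 16.8 and 17.5 FPKM in control libraries and at 13.7, 14.7 and 13.4 FPKM in PGAM5 KD libraries. All knockdown libraries were below all controls. The mean fell from 17.6 ± 0.918 to 13.9 ± 0.641 FPKM (SD, n = 3), a log2 fold change of -0.32 (SE 0.055, 95% interval -0.45 to -0.19, limma adjusted p = 0.00543), with an exact permutation p of 0.1. Of all genes tested, 9.58% had a larger fall. Irak2 resembles the pseudogene Gm7229 (95.8% identity over 645 bases), which was listed at 0. Stretches of Irak2 also match expressed transcripts at 85% identity or more, namely Cops7b (207 bases, 7.91 FPKM in control and 8.33 FPKM in PGAM5 KD cells), Plekhm3 (206 bases, 15.3 and 15.0 FPKM), 4930402H24Rik (201 bases, 3.03 and 3.42 FPKM) and Dtx3l (200 bases, 10.95 and 15.6 FPKM). Irak2 shares 196 exon bases on the opposite strand with Gm43963, which was below 1 FPKM in both groups. Irak3 shares 192 exon bases on the opposite strand with Tmbim4, which was at 11.0 FPKM in control and 12.4 FPKM in PGAM5 KD cells.

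Traf6 encodes the ubiquitin ligase that links the IRAK complex to the kinase TAK1. Traf6 (chr2:101678429-101701669, plus strand) was at 5.36, 4.97 and 5.79 FPKM in control libraries and at 4.72, 4.44 and 4.43 FPKM in PGAM5 KD libraries. The knockdown libraries lay below the controls without overlap. The log2 fold change was -0.20 (SE 0.069, 95% interval -0.37 to -0.041) and missed the threshold (limma adjusted p = 0.0615). It passed in 4 alternatives, with an adjusted p of 0.0256 and a log2 fold change of -0.30 after scaling to TPM, 0.0252 by voom, 0.0478 with array weights and 0.0498 with no mean-variance trend.

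Ratios of genes within a library do not depend on the scaling between libraries. The ratio of Irak3 to Irak2 FPKM was 0.487, 0.598 and 0.562 in control libraries and 1.56, 1.24 and 1.41 in PGAM5 KD libraries. Irak2 was thus the more abundant of the pair in every control library and Irak3 in every knockdown library. The log2 ratio was higher by 1.35 in PGAM5 KD (SE 0.13), a 2.55-fold shift, with an exact permutation p of 0.1, the smallest this design allows, and an adjusted p of 0.2 over the 6 ratios computed. Cd14 to Tlr4, the co-receptor against the receptor, was 60.4, 69.5 and 74.3 in control libraries and 95.5, 89.5 and 91.8 in PGAM5 KD libraries, a log2 difference of 0.44 (SE 0.093, exact permutation p = 0.1). Ticam2 to Ticam1 was 0.225, 0.199 and 0.186 in control libraries and 0.121, 0.176 and 0.116 in PGAM5 KD libraries, a log2 difference of -0.59 (SE 0.21, exact permutation p = 0.1). Neither of these overlapped between the groups, although PGAM5 KD replicate 2 came close to the controls for Ticam2 to Ticam1. Adjusted over the 6 ratios, the permutation p was 0.2 for each of them. The ratio of Ticam2 to Ticam1 also rests on fragments that are uncertain, since Ticam2 shares exon bases with Tmed7. Ly96 to Tlr4, Tirap to Myd88 and Myd88 to Ticam1 overlapped, with log2 differences of -0.48, -0.11 and -0.19 (exact permutation p = 0.2, 0.3 and 0.3). Leaving out 1 library took them to -0.30 without PGAM5 KD replicate 2, to -0.045 without PGAM5 KD replicate 3 and to -0.12 without control replicate 2.

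**Figure D3:**
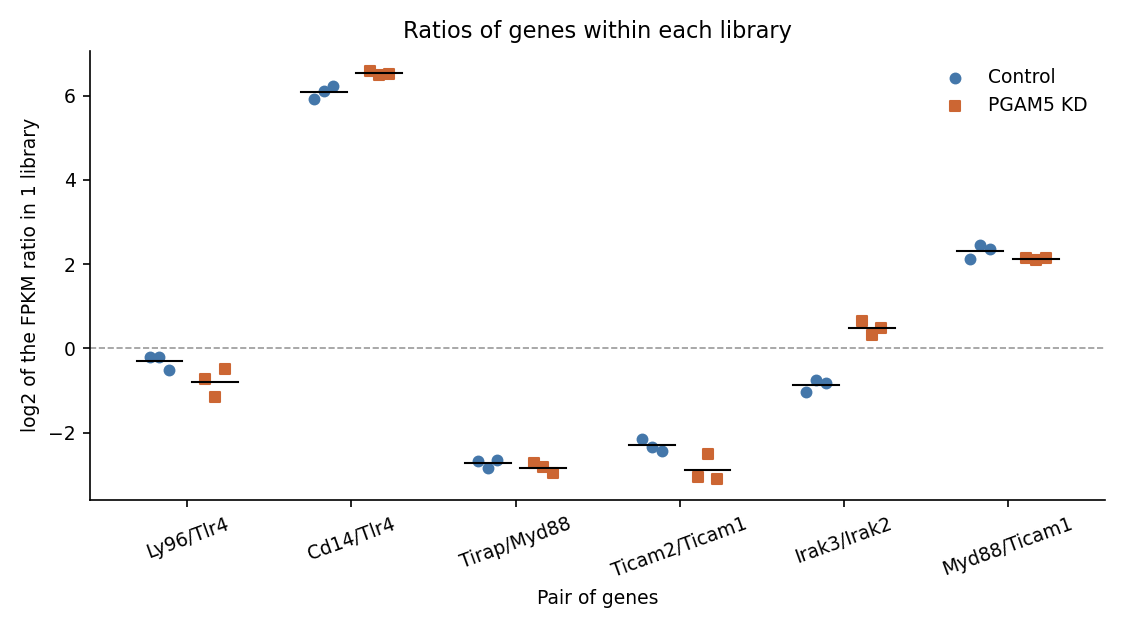
log2 of the FPKM ratio of a pair of genes within each library, for 6 pairs in control (blue circles) and PGAM5 KD (orange squares) libraries, with lines at group means and a dashed line at equal levels. Irak3/Irak2 crosses the dashed line between the groups, from a ratio of 0.487 to 0.598 in control to one of 1.24 to 1.56 in PGAM5 KD libraries.

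Because Irak2 and Irak3 moved in opposite directions, the sequence upstream of their start sites is shown, with that of Myd88, in which a searched motif was found. The sequences are RefSeq promoters on GRCm38.p6, 250 bases up to the start site on the gene's strand, and Irak3 has a pair of start sites. The Irak2 stretch is chr6:113638217-113638466 on the plus strand, the Irak3 stretches are chr10:120201598-120201847 and chr10:120202131-120202380, and that of Myd88 is chr9:119340019-119340268, the last 3 on the minus strand. The Myd88 stretch lies inside the annotated span of the gene, which extends farther upstream, to base 119341411. Capitals mark the motif match.
Irak2: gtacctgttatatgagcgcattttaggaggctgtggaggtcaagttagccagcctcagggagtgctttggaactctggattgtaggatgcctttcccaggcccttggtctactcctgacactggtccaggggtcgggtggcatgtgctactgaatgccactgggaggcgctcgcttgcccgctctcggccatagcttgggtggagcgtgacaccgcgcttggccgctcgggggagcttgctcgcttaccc
Irak3, inner start: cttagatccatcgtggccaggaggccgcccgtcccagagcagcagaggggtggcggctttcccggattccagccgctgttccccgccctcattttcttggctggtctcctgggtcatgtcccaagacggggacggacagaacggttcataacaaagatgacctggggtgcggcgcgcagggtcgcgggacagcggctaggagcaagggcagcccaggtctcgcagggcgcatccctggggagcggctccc
Irak3, outer start: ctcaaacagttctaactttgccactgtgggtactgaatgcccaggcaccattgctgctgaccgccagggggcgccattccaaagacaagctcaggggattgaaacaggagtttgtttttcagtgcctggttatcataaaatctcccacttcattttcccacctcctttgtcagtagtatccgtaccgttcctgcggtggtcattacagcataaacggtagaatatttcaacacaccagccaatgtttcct
Myd88: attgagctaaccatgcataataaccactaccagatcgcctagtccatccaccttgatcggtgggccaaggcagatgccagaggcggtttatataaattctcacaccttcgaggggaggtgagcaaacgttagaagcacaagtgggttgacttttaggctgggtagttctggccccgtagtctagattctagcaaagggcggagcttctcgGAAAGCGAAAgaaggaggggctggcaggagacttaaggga

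Motifs were searched on both strands in windows of 300 bases, 250 before and 50 after each start, which were at hand for 6 of the 10 genes in 8 windows. The interferon-stimulated response element core (GAAA, any 2 bases, GAAA) matched once, in Myd88, beginning 40 bases before the start site, and 3.44% of 32851 mouse promoters of this length hold it. The NF-kappaB consensus (held by 8.46% of promoters) and the AP-1 site TGANTCA (held by 7.81%) matched in none of the 8 windows, which says only that these letters are not in these windows. A match is a description of the sequence and not a binding site.

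The genes most like Irak3 and Irak2 in profile were found by Euclidean distance between log2(FPKM + 1) values, less the control mean, over the 6 libraries. The nearest to Irak3 were Slamf9, a SLAM family receptor gene, at a distance of 0.14, Slc15a3, a lysosomal peptide transporter gene, at 0.15, and Ifit2, an interferon-induced gene, at 0.16. Slc15a3 was at 12.0 FPKM in control and 24.2 FPKM in PGAM5 KD cells, Ifit2 at 5.96 and 12.6 FPKM, and Slamf9 at 0.419 and 1.68 FPKM. Slamf9 was below 1 FPKM in control cells and entered the test through its PGAM5 KD values. Its likeness to Irak3 rests on the pseudocount of 1, since its log2 fold change ran from 0.82 to 1.96 over the alternatives, against 0.88 to 1.01 for Irak3. Nearest to Irak2 were Akap8, at a distance of 0.033 with 37.0 FPKM in control and 29.3 FPKM in PGAM5 KD cells, Hgh1 at 0.041 and Mis12 at 0.054. These are descriptions over 6 libraries in 2 groups, in which any gene with a like difference between the groups lies near.

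Beyond the receptor and adaptors, 4 lists of pathway genes were counted. Of their 53 genes, 47 were tested, of which 9 rose and 6 fell, so that 31.9% were called, close to the 31.7% of all genes. After scaling to TPM, 6 were higher and 13 lower, so that 40.4% were called, beside 10.3% of all genes higher and 21.7% lower. As reported, their median log2 fold change was 0.0077. The list of genes for LPS transfer, RP105 and TLR4 trafficking held the largest changes. Of 12 genes tested, 5 rose, 3 fell and 4 did not pass, beside 16.8% higher and 14.9% lower of all genes, and Lbp, the gene of LPS-binding protein, was listed at 0 in all libraries.

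Cd180 encodes RP105, a TLR4 homolog without a signaling domain that restrains LPS responses in macrophages. It was at 45.2, 48.1 and 48.0 FPKM in control libraries and at 26.9, 25.5 and 25.6 FPKM in PGAM5 KD libraries, with the groups far apart. The mean fell from 47.1 ± 1.62 to 26.0 ± 0.745 FPKM (SD, n = 3), a log2 fold change of -0.83 (SE 0.041, limma adjusted p = 2.80e-05). Cd180 thus fell while Cd14 rose. Rab7b, a small GTPase that sends TLR4 to lysosomes, fell from 7.96 to 5.22 FPKM (log2 fold change -0.53, limma adjusted p = 0.00236). Rab11a, a GTPase of recycling endosomes, rose from 16.9 to 22.5 FPKM (0.39, limma adjusted p = 0.00984). Itgam, an integrin gene that is also in the macrophage marker list, rose from 2.41 to 4.46 FPKM (0.68, limma adjusted p = 0.00322).

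In the MyD88 arm below the adaptors, limma called 0 of 13 kinase and ubiquitin enzyme genes as higher and 1 as lower, and 12 did not pass, beside the 31.7% of all genes called. At an unadjusted p under 0.05, 0 were higher and 4 lower, beside 22.7% and 20.1% of all genes. After scaling to TPM, 5 of the 13 were called as lower, beside 21.7% of all genes at that scaling, so the count depends on the scaling. The 1 that fell was Pik3ap1, encoding the adaptor BCAP that links TLRs to PI3K, which went from 107.5 to 90.7 FPKM (log2 fold change -0.24, limma adjusted p = 0.00214). In the TRIF arm, 1 of 9 genes rose, 1 fell and 7 did not pass, beside the same 31.7%. Azi2, an adaptor of TBK1 also called NAP1, rose from 11.5 to 13.5 FPKM (0.21, limma adjusted p = 0.0169), and Traf3, which links TRIF to TBK1, fell from 18.2 to 16.1 FPKM (-0.17, limma adjusted p = 0.0489). Traf3 passed in 9 of 17 alternatives, its adjusted p being 0.0838 with no filter on low genes, 0.0691 with no mean-variance trend and 0.0576 after median centring. Its adjusted p was 0.137 without control replicate 1, 0.0719 without control replicate 2, 0.0992 without control replicate 3, 0.135 without PGAM5 KD replicate 2 and 0.136 without PGAM5 KD replicate 3. Azi2 passed in 14 of 17, its adjusted p being 0.0544 without control replicate 1, 0.0572 without PGAM5 KD replicate 3 and 0.0651 after scaling to TPM.

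Among 13 tested genes whose products restrain TLR4 signaling, 3 rose, 1 fell and 9 did not pass, a share near the 31.7% of all genes called. Dok2 and Dok1 encode related adaptors that dampen LPS signaling through ERK, and they moved in opposite directions. Dok2 rose from 24.4 ± 1.76 to 32.9 ± 0.951 FPKM (log2 fold change 0.42, limma adjusted p = 0.00207) and Dok1 fell from 16.3 ± 1.07 to 12.9 ± 1.08 FPKM (-0.31, limma adjusted p = 0.0184). Ptpn6, the gene of the phosphatase SHP-1, rose from 126.7 to 148.8 FPKM (0.23, limma adjusted p = 0.00258). Zc3h12a, the gene of the RNase Regnase-1, rose from 41.9 to 48.1 FPKM (0.20, limma adjusted p = 0.0437), but passed in 8 of 17 alternatives. Without control replicate 2 its adjusted p was 0.0740, without control replicate 3 it was 0.101, without PGAM5 KD replicate 2 it was 0.127 and without PGAM5 KD replicate 3 it was 0.114. The adjusted p of Zc3h12a was 0.153 after scaling to TPM (log2 fold change 0.12), 0.123 after quantile normalization (0.14), 0.0971 with no filter on low genes, 0.0741 with no mean-variance trend and 0.0740 with the replicate block. The adjusted p of Dok1 was 0.0574 without control replicate 1 and 0.0611 without control replicate 2.

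**Figure D4:**
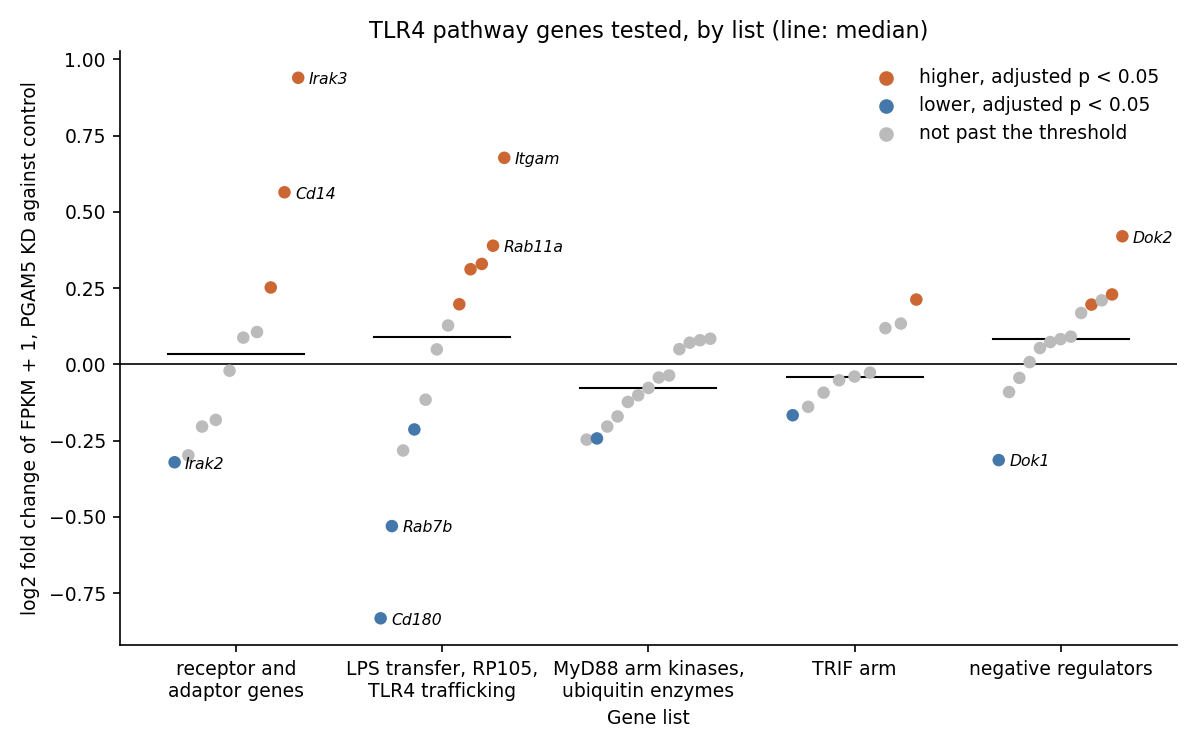
log2 fold change of FPKM + 1 in PGAM5 KD against control for each tested gene of the receptor and adaptor set and of 4 pathway lists, with a line at each list's median. Orange points are higher and blue points lower at an adjusted p under 0.05, and Irak3 at 0.94 and Cd180 at -0.83 are the extremes.

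**Figure D5:**
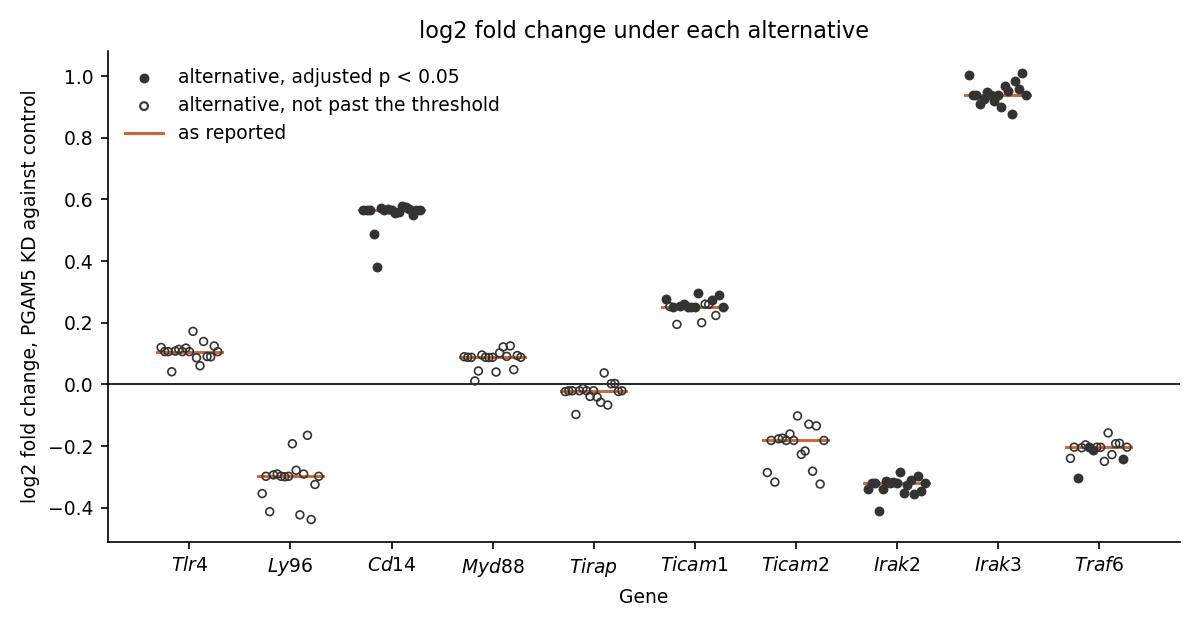
log2 fold change of the 10 genes under each alternative setting (filled points pass an adjusted p under 0.05, open points do not) beside the value as reported (orange line). Cd14, Irak2 and Irak3 stay filled throughout, Ticam1 and Traf6 hold both kinds of points, and the points of Tirap lie on both sides of 0.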

How the data were processed

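The authors deposited FPKM values, 1 table for each of the 6 libraries, made from poly(A)-selected RNA. The submitters' processing notes name HISAT2 2.0.5, featureCounts 1.5.0-p3 and mm10. Their annotation release is not given in the sources used here. Names, coordinates and exon lengths were taken from GENCODE M21 (GRCm38), which held 54495 of the 54532 deposited identifiers. The product of FPKM and exon length gave whole fragments within 0.01 for 96.8% to 97.1% of values under 1000 fragments, from which depth was recovered. For Cd14 and Ticam2 it did not, so their fragments are not given, and voom used rounded values for them. Depth was 18165599 to 20178812 fragments in control and 18163464 to 24388917 in PGAM5 KD libraries.

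Genes averaging 1 FPKM or more over the libraries (10540) were fitted on log2(FPKM + 1) in limma 3.58.1 under R 4.3.3, using lmFit, then eBayes with its trend option. Tests were two-sided and adjusted by the Benjamini-Hochberg method. The code of the fit was checked on simulated fragments, with the same added spread for every gene and few changed genes. These settings differ from the data, so the check says nothing of genes near the threshold. The study's thresholds, an absolute log2 fold change over 1 with an adjusted p below 0.05, defined differential expression. Exact permutation tests were two-sided. Resembling transcripts were searched with blastn 2.17.0 (at least 85% identity over 200 bases). Python 3.11.15, pandas 2.3.3, scipy 1.17.1 and matplotlib 3.10.9 were used. The genes named were the 10 genes, Pgam5, at most 4 called genes of each list by size of change, genes overlapping or resembling one of the 10, the 3 nearest in profile to the largest rise and the largest fall, and cell type markers. The 10 genes and the lists were chosen with earlier results of these data known.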

Additional observations from a re-analysis of the deposited data

How the results depend on the processing

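Cd14, Irak2 and Irak3 kept their direction and call in all 17 alternatives, with log2 fold changes of 0.38 to 0.58, -0.41 to -0.28 and 0.88 to 1.01. Ticam1 passed in 11 of 17. The alternatives were a pseudocount of 0.1, no filter or a mean FPKM of at least 5, TPM, quantile normalization, median centring, no mean-variance trend, array weights, the replicate block, leaving out each library, voom, and, chosen after seeing the data, protein-coding genes only. Ly96, Ticam2 and Traf6 were below the filter of 5. Of the 8 genes with recovered fragments, Ly96 had the fewest, 63 in its lowest library.

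Of the 10 genes, the number lower was 2 in place of 1 after scaling to TPM, with no mean-variance trend, with array weights and by voom, Traf6 being the addition. The number past the fold limit was 1 in place of 0 with a pseudocount of 0.1 and by voom. Scaling to TPM moved the median of all genes from 0.013 to -0.060, the count of higher genes from 1771 to 1088 and that of lower genes from 1575 to 2282. After scaling to TPM, 5 in place of 3 genes of the LPS transfer list, 5 in place of 1 of the MyD88 arm and 2 in place of 1 of the TRIF arm were lower, and 0 in place of 1 of the TRIF arm were higher. Quantile normalization gave 2 lower genes in the MyD88 arm, and median centring 0 in the TRIF arm. Summed FPKM was 304393 to 304889 in control and 317936 to 324298 in PGAM5 KD libraries, and scaling to TPM divides each library by its sum. The cause of this difference in sums was not tested. The difference for Tirap turned positive without control replicate 3 (0.037), without PGAM5 KD replicate 2 (0.0022) and without PGAM5 KD replicate 3 (0.0031), the range over libraries left out being -0.067 to 0.037. Over the same libraries the log2 ratio difference ran from 1.27 to 1.44 for Irak3 to Irak2, 0.36 to 0.51 for Cd14 to Tlr4, -0.78 to -0.47 for Ticam2 to Ticam1, -0.64 to -0.30 for Ly96 to Tlr4, -0.17 to -0.045 for Tirap to Myd88 and -0.29 to -0.12 for Myd88 to Ticam1. The log2 fold change of Traf6 ran from -0.25 to -0.16.

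Libraries with the same replicate number did not deviate together (correlations of -0.020, 0.016 and -0.052), so the numbers were not taken as pairs. With the replicate block, 3 of the 10 genes were higher and 1 lower, as without it, and 1440 and 1212 of all genes. The adjusted p of Ticam1 was then 0.0382.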
